A study of Mus musculus with 12 samples.

Results

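The 32 probes described here were bright on average over the 12 arrays and changed little between groups of mouse epithelial cells in the authors' value table. They were chosen from that table, which holds log2 signal for 2270 microRNA (miRNA) array probes, by 2 conditions: a mean over all 12 arrays of 9 or more, and a distance of less than 0.6 between the highest and the lowest of the 4 group means, called the range below. Of the 2270 probes, 165 met the first condition, and 32 of these, or 19.4%, met both. The values of the table therefore fixed both the brightness and the narrow range of these members, and neither is a result.

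Each of the 4 groups had 3 arrays. Adult lung and adult mammary epithelium came from female mice of 10 weeks. It was freed with trypsin and collagenase, and repeated centrifugation (7 rounds for lung, 5 for mammary) was the purification step, with no cell sort named. The groups called reprogrammed lung and reprogrammed mammary epithelium belong to a study of adult cells reprogrammed in vivo in dependence on stroma. Whether the tissue word in their name gives the origin or the new fate of the cells is not said in the labels, nor is a strain, host or allele. Dissociated cells of embryonic lung at E13.5, adult lung and adult mammary gland were prepared for transplantation in Matrigel, per the labels' protocols. No label ties replicates to separate animals. The p-values below therefore speak only for the spread among the 12 samples, and this may be technical spread. The epithelial label could not be checked against marker miRNAs, since probes carry serial numbers of the array maker and the tables used here pair 0 of the 32 members with a miRNA. For the same reason no sequence is shown and no family is named.

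miRNAs are short RNAs that guide Argonaute proteins to partly complementary sites in messenger RNAs and lower their translation or stability. In epithelium, a small number of miRNAs usually makes up most of the pool, among them families shared by many tissues, such as let-7, and families that mark epithelium, such as miR-200. miRNAs at similar levels in different cell types are often sought as reference genes, because a measured level has meaning only against something held constant. On hybridisation arrays, signal also depends on labelling and on the probe, so a brighter probe does not show a more abundant miRNA, and ranks below are ranks of signal only.

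The members spanned table means from 9.04 (UCSF034_001113) to 16.85 (UCSF034_002465) and ranges from 0.04 (UCSF034_001736) to 0.60 (UCSF034_000461), with a median range of 0.39. In 10 of the 32 the range was under 0.3. UCSF034_000738 had group means within 0.10 of each other, although its single arrays ran from 9.91 (reprogrammed lung replicate 3) to 10.85 (reprogrammed lung replicate 1). UCSF034_000464 had group means within 0.17, and its values ran from 13.16 to 13.86 on the same 2 arrays, in the opposite order. UCSF034_001767, with a range of 0.54, ran from 13.70 on reprogrammed lung replicate 3 to 15.10 on reprogrammed mammary replicate 2. UCSF034_001384 ran only from 9.21 to 9.74. Members with close group means thus included probes whose single arrays lay far apart. At the edge, UCSF034_000461 (0.597), UCSF034_000950 (0.590) and UCSF034_000315 (0.588) were just inside, and UCSF034_000918 (0.603), UCSF034_000456 (0.604) and UCSF034_001414 (0.611) just outside. At the other threshold, UCSF034_001113 was inside with a mean of 9.04 and UCSF034_001110 outside with 8.94. No gap in the values separates members from the next probes. The adult lung group mean was the highest of the 4 for 12 members and the lowest for 9, adult mammary was highest for 12 and lowest for 4, reprogrammed lung for 3 and 13, and reprogrammed mammary for 5 and 6.

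How the authors normalized the table is not given in the sources at hand, so its values were compared with the scanner files. In this recalculation, spots of each array, as log2 median signal without background subtraction, were brought to a common distribution by quantile normalization and the median of each probe's spots was taken. The result came within a median of 0.0342 (log2) of the deposited values over all 2270 probes and differed by at most 0.1325. Over the 165 bright probes that median was 0.0374, against 0.392 without normalization, and over all 2270 probes it was 0.0720 without normalization. In the table, 83.1% of all values were held by more than 1 cell to 8 decimals. A probe that holds the same rank on every array receives nearly the same value on every array under such a normalization, whatever its signal.

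UCSF034_002465 ranked 1 of 2270 on all 12 arrays and UCSF034_001736 ranked 2 on all 12. The table lists UCSF034_002465 at 16.88 in 11 columns and at 16.57 in the other (adult lung replicate 1), and UCSF034_001736 at 16.28 in 10 columns and at 16.35 and 16.33 in adult lung replicates 1 and 3. In the 3 groups other than adult lung both probes thus had the same table value on all 3 arrays. UCSF034_002520 and UCSF034_002521 also shared values, with 15.62 listed in 5 columns for the first and 15.46 in 4 columns for the second. They moved between ranks 3 and 12.

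The scanner files of the same arrays hold processed signal, which Feature Extraction had background-subtracted spot by spot. Every member was well above background on all 12 arrays, and none of the spots on any array was marked as saturated (0 per array). On the log2 scale without any scaling between arrays, 26 of the 32 members had a range of 1 or more, and the median range was 1.39, against 1.37 over all 946 probes tested. For 30 members the adult lung mean was the highest, and for 28 the reprogrammed mammary mean was the lowest. Adult lung arrays were also the brightest and reprogrammed mammary arrays the dimmest. Over the 630 probes detected everywhere, the 75th percentile of processed signal was 2493 ± 424 for adult lung, 1519 ± 215 for reprogrammed lung, 1405 ± 72.5 for adult mammary and 837 ± 29.3 for reprogrammed mammary cells (SD, n = 3). The outer groups were 1.56 apart on the log2 scale. UCSF034_000310 moved with it, with an unscaled log2 signal of 14.54, 14.67 and 14.98 in adult lung and 13.29, 13.20 and 12.98 in reprogrammed mammary cells (replicates 1, 2, 4). In bulk RNA, fewer cells of a type, less RNA per cell and differences in labelling cannot be told apart. The cause of the difference in brightness was not tested.

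The smallest unscaled ranges belonged to 4 members. UCSF034_002465 had unscaled log2 signals between 16.63 and 17.19 on the 12 arrays, a range of group means of only 0.30, while the brightness of the arrays moved by 1.56. UCSF034_002520 and UCSF034_002521 had unscaled ranges of 0.44 and 0.48, and UCSF034_001113 one of 0.65. Among single arrays, UCSF034_002520 still ran from 14.42 to 15.83.

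Scaling by the 75th percentile of each array, the main setting below, brought the median range of the members to 0.56, against 0.95 over all 946 probes tested and 1.31 over the 133 bright probes that are not members. Of the 32 members, 20 (62.5%) again had a range under 0.6, against 28.5% of all probes tested, and 12 did not. The same arrays chose the members, so these shares describe how much of the choice the other processing keeps. In the scaled values 5 members had a range above 1: UCSF034_002465 (1.29), UCSF034_002520 (1.13), UCSF034_002521 (1.11), UCSF034_001768 (1.06) and UCSF034_001767 (1.06). In the scaled values the adult lung mean was the highest of the 4 for 13 members and the lowest for 12, and the reprogrammed mammary mean was the highest for 12 and the lowest for 1. The group means of UCSF034_000311 lay within 0.17 and those of UCSF034_000330 within 0.21.

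Some members stayed under 0.6 in each of 5 processings. These were the authors' table, the main scaling, the percentile taken over all probes, quantile normalization of the probes and normexp background correction. In the authors' table every member does so by choice. The members were 10 probes, namely UCSF034_000311, UCSF034_000324, UCSF034_000330, UCSF034_000643, UCSF034_000655, UCSF034_000737, UCSF034_000738, UCSF034_000739, UCSF034_000871 and UCSF034_001384. UCSF034_000643 and UCSF034_000655 were close to the limit with the percentile over all probes (0.594 and 0.599). No share over other probes is set beside the 10, so the count describes the members only. With no scaling all 10 had ranges above 1, from 1.07 (UCSF034_000324) to 1.77 (UCSF034_000330). UCSF034_000738 had the scaled log2 signals 10.09, 10.22 and 10.12 in adult lung, 10.67, 10.47 and 10.30 in reprogrammed lung, 10.54, 10.11 and 10.33 in adult mammary and 10.01, 10.44 and 10.64 in reprogrammed mammary cells. The adult lung arrays lay close together at the low end, apart from the 3 reprogrammed lung arrays, and overlapped with both mammary groups. UCSF034_001384 had the smallest spread of all members, with 9.61, 9.53 and 9.58 in adult lung, 9.39, 9.41 and 9.33 in reprogrammed lung, 9.38, 9.58 and 9.50 in adult mammary and 9.79, 9.73 and 9.71 in reprogrammed mammary cells. In these scaled values its 3 reprogrammed mammary arrays were the highest of all 12. Its 3 reprogrammed lung arrays lay below both adult lung and reprogrammed mammary cells. The order of its groups changed with the processing. In the authors' table adult lung had the highest group mean, 9.68 against 9.64 in reprogrammed mammary cells. With no scaling adult lung was again highest (10.35) and reprogrammed mammary lowest (8.95).

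The comparisons that follow set the members' log2 changes beside those of all probes tested. They used limma on the scaled scanner signal with Benjamini-Hochberg adjustment over 946 probes and a threshold of 0.05. The rule fixed the group means in a table of the same arrays, so nothing is read from the low counts. The comparisons share groups, and their values are given side by side only.

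Between reprogrammed lung and adult lung cells, 4 of the 32 members passed the threshold, 3 higher and 1 lower in reprogrammed lung, where 34.9% of all probes tested passed. The members' median change was -0.19 (log2), against 0.14 over all tested. Between reprogrammed mammary and adult mammary cells 1 member passed, with 10.1% of all tested. The change was positive in 27 of the 32 and in 493 of the 946 probes tested (median 0.19, against 0.00). That direction turned with the scaling: 0 members were positive with no scaling (median -0.56), 11 in the authors' table, 16 after quantile normalization and 23 with the percentile over all probes. Reprogrammed mammary minus reprogrammed lung was also positive in 27 of the 32, and in 468 of the 946 tested (median 0.25, against -0.00). With no scaling it was positive in only 4 members (median -0.60). It was positive in 21 members in the authors' table, in 21 under quantile normalization and in 28 with the percentile over all probes. Between the adult tissues 6 passed, 2 higher and 4 lower in mammary cells, with 27.0% of all tested. Reprogrammed mammary against adult lung gave 6, 5 higher and 1 lower, with 43.7% of all tested. For reprogrammed mammary against reprogrammed lung cells the count was 0 in limma, with 0.211% of all tested called. At an unadjusted limma p under 0.05 there were 8 of the 32 members and 183 of the 946 probes tested. Reprogrammed lung against adult mammary cells also gave 0 in limma, with 6.03% of all tested called. There, 1 member and 208 of the 946 probes tested had an unadjusted limma p under 0.05. In all, 22 members passed in none of the 6 comparisons, and 10 of the 32 passed in at least 1, against 511 of the 946 probes tested.

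These counts moved with single arrays. For reprogrammed lung against adult lung the count was 1 without adult lung replicate 2 or 3, 2 without adult lung replicate 1 or without any one of the reprogrammed lung replicates 1, 2 and 3, and 10 without adult mammary replicate 1. For the adult tissues it was 2 without either of adult lung replicates 2 and 3 or without adult mammary replicate 2, and 3 without adult mammary replicate 4. The 1 member of the mammary comparison was lost without any one of its 6 arrays. Between the reprogrammed groups 4 members passed without reprogrammed mammary replicate 4, and 1 passed between reprogrammed lung and adult mammary cells without reprogrammed lung replicate 1. With slide as a fixed block the counts of the first and the adult comparison were 2 each.

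UCSF034_002465, rank 1 throughout the table, was the member that passed most often. Its scaled log2 signals were 16.40, 16.31 and 15.89 in adult lung, 16.81, 17.01 and 17.02 in reprogrammed lung, 16.92, 16.92 and 16.84 in adult mammary and 17.48, 17.52 and 17.47 in reprogrammed mammary cells. Adult lung was below every other array and reprogrammed mammary above, with no overlap, while adult lung arrays were the brightest and reprogrammed mammary arrays the dimmest. The log2 change from adult lung was 1.29 ± 0.13 in reprogrammed mammary (SE, limma adjusted p = 0.000129), 0.75 ± 0.13 in reprogrammed lung (adjusted p = 0.0032) and 0.70 ± 0.13 in adult mammary cells (adjusted p = 0.00485). From adult to reprogrammed mammary cells it was 0.60 ± 0.13 (limma adjusted p = 0.0255), and 0.55, 0.68 and 0.56 within slides 1, 2 and 3. Within slides 1 and 2 the reprogrammed mammary cells exceeded adult lung by 1.12 and 1.64. In the authors' table the changes from adult lung were all 0.10 and the change between the mammary groups was 0.00. After quantile normalization the changes from adult lung were 0.18 in reprogrammed mammary, 0.27 in reprogrammed lung and 0.18 in adult mammary cells (limma adjusted p = 0.399, 0.219 and 0.439). Without scaling, that from adult lung to reprogrammed mammary was -0.27 (limma adjusted p = 0.15). The direction for this probe thus turned with the scaling, and its signal relative to the other probes differed between groups, while its unscaled signal was nearly level.

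UCSF034_001736 behaved in a similar way in 1 comparison. Its scaled signals were 16.40, 15.94 and 15.84 in adult lung and 16.79, 16.90 and 16.73 in reprogrammed mammary cells, which did not overlap. The log2 change was 0.74 ± 0.17 (SE, limma adjusted p = 0.00636), with 0.56 and 1.06 within slides 1 and 2. It was -0.18 after quantile normalization (limma adjusted p = 0.365), -0.04 in the authors' table (adjusted p = 0.638) and -0.82 with no scaling (adjusted p = 0.00719).

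The pair UCSF034_002520 and UCSF034_002521 was higher in reprogrammed mammary than in adult lung cells by 1.13 ± 0.26 and 1.11 ± 0.26 (log2, SE, limma adjusted p = 0.00791 and 0.00867). UCSF034_002520 had scaled signals of 14.61, 14.92 and 14.78 in adult lung and 16.05, 16.38 and 15.27 in reprogrammed mammary cells. Reprogrammed mammary replicate 4, the lowest of its group, still lay above adult lung. Within slide 1, which holds that array, the change was 0.50, and within slide 2 it was 1.59. With no scaling it was -0.43 (limma adjusted p = 0.236), and after quantile normalization it was 0.23 (adjusted p = 0.524).

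UCSF034_001113, the member with the lowest table mean, was lowest in adult lung cells. Its scaled log2 signals were 8.77, 8.32 and 8.32 in adult lung, 8.90, 8.99 and 9.10 in reprogrammed lung, 9.25, 9.32 and 9.24 in adult mammary and 9.59, 9.24 and 9.30 in reprogrammed mammary cells. Adult lung overlapped with none of the other groups. The change from adult lung was 0.80 ± 0.15 in adult mammary (SE, limma adjusted p = 0.00359), 0.53 ± 0.15 in reprogrammed lung (adjusted p = 0.0215) and 0.91 ± 0.15 in reprogrammed mammary cells (adjusted p = 0.00129). Within slides 1 and 2 the adult difference was 0.71 and 0.92. The authors' table gave 0.56 between the adult tissues (limma adjusted p = 0.00691). For reprogrammed against adult lung it gave 0.23 (limma adjusted p = 0.173), and the percentile over all probes gave 0.16 (adjusted p = 0.53), so that call was lost in both. Without scaling the 3 changes were -0.01, -0.18 and -0.65, so the rise is relative to the other probes on the array. The last of these unscaled changes, in reprogrammed mammary cells, passed in the opposite direction (limma adjusted p = 0.0154).

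UCSF034_000461 went the other way, with scaled signals of 14.62, 14.47 and 14.36 in adult lung against 13.53, 14.02 and 13.82 in reprogrammed lung, 14.27, 13.61 and 13.55 in adult mammary and 13.91, 13.95 and 13.66 in reprogrammed mammary cells. It was lower than in adult lung by -0.67 ± 0.20 in adult mammary (log2, SE, limma adjusted p = 0.0373), -0.69 ± 0.20 in reprogrammed lung (adjusted p = 0.0277) and -0.64 ± 0.20 in reprogrammed mammary cells (adjusted p = 0.0296). With slide as a fixed block all 3 fell short (limma adjusted p = 0.101, 0.0718 and 0.0778). All 3 passed in the authors' table (limma adjusted p = 0.0159, 0.0218 and 0.00454). They also passed after quantile normalization (limma adjusted p = 0.000715, 0.000737 and 0.000175). Over 20 other settings they passed in 11, 13 and 12. Within slides 1 and 2 the adult difference was -0.28 and -0.81. This member kept its direction with no scaling, at -1.49, -1.40 and -2.21.

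UCSF034_000643, UCSF034_000655 and UCSF034_000950 were lower in adult mammary than in adult lung cells by -0.37 ± 0.11, -0.38 ± 0.11 and -0.52 ± 0.17 (log2, SE, limma adjusted p = 0.033, 0.0277 and 0.0482), and fell short with slide as a fixed block (adjusted p = 0.0954, 0.0794 and 0.0734). UCSF034_000837 was higher in reprogrammed than in adult lung cells by 0.73 ± 0.23 (SE, limma adjusted p = 0.037). Reprogrammed lung replicate 1 stood at 12.52 there against 11.82 and 11.48 in its group, and the probe fell short with the slide block (adjusted p = 0.0858) and in the authors' table (0.36, adjusted p = 0.308). Without that array the change was 0.44 (limma adjusted p = 0.0579), and with no scaling it was 0.02 (adjusted p = 0.97). UCSF034_000643 and UCSF034_000655 had small within-group SDs (0.11 and 0.10). UCSF034_001768, with an SD of 0.47, had the largest change among members between the reprogrammed groups, 1.06 ± 0.36 (mammary minus lung, SE), and did not pass (limma adjusted p = 0.149). Its scaled signals were 15.54, 15.67 and 14.32 in reprogrammed mammary and 14.62, 14.13 and 13.60 in reprogrammed lung cells, and replicate 4 of the first group overlapped with the second.

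The spread between replicates of a group was not an input of the rule, although probes with wide spread meet a bound on group means less easily. The median within-group SD of scaled signal was 0.28 (log2) over the members, 0.38 over the 133 other bright probes and 0.34 over all 946 tested. The members ran from 0.06 in UCSF034_001384 to 0.47 in UCSF034_001767 and UCSF034_001768. By group, the members' median SD was 0.11 in adult lung, 0.26 in reprogrammed lung, 0.22 in adult mammary and 0.13 in reprogrammed mammary cells. For the other bright probes it was 0.20, 0.42, 0.32 and 0.33 in the same order. Adult mammary replicate 1 lay above its group mean for 26 of the 32 members (median deviation 0.21), and replicates 2 and 4 for 7 and 8. The coefficient of variation over the spots of 1 probe on 1 array was averaged over the arrays for each probe. These averages lay between 3.71% and 7.61% for the members, with a median of 5.55%, against 6.24% for the other bright probes. Single arrays can lie outside these limits. Each member had 6 or 7 spots.

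Slides were not used by the rule either. The 12 arrays lay on 3 slides, and a limma F test of slide given the group called 0 of the 32 members, with 0.00% of all 946 probes called. At an unadjusted p under 0.05 there were 0 members and 32 of all tested. The smallest slide p among members was 0.0803, for UCSF034_000464 (limma adjusted p = 0.873), followed by UCSF034_000950 with 0.0821.

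Each array was also held out in turn, the rule was applied to the other 11, and the held-out values were set against the mean of the 4 group means. The held-out array took part in the authors' normalization but not in the choice. The rule then found 29 to 35 probes, 28 to 31 of them among the 32, and 19 of the 32 were found every time. Members on the held-out array deviated by a median of 0.0790 to 0.280 (log2) for 10 of the 12 arrays. Reprogrammed lung replicate 1 gave 0.456 and reprogrammed lung replicate 3 gave 0.327. The other bright probes had failed the rule on the same 11 arrays, so larger deviations were in part fixed by the choice. Their medians ran from 0.269 to 0.693, and on reprogrammed lung replicate 1 the median was 0.445. On that array the median deviation of the probes chosen from the other arrays was not smaller than that of other bright probes, and 24 of 34 lay within 0.6 of the mean. One of them was 2.82 away. In the table, reprogrammed lung replicate 1 was the lowest of all 12 arrays for 10 of the 32 members and reprogrammed lung replicate 3 for 8. UCSF034_000315 had 12.67 on reprogrammed lung replicate 1 against 13.40 and 14.06 in its group. Without reprogrammed lung replicate 1 the rule found 34 probes, 29 of them members.

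Of the 32 members, 15 had another member with a neighbouring serial number, in 8 pairs. A neighbour among all 165 bright probes was held by 21 members (65.6%) and by 74 of the 133 other bright probes (55.6%), so neighbouring numbers are common among bright probes. The arrays' deviations from their group means, which the selection did not use, ran together within these pairs. The correlation over 12 arrays had a median of 0.9765 and ran from 0.876 (UCSF034_000310 with UCSF034_000311) to 0.998 (UCSF034_000475 with UCSF034_000476). For the other 488 pairs of members the median was 0.159, and for 8778 pairs of the other bright probes it was 0.0659. Neighbouring pairs among the other bright probes were not taken separately. Whether members differ from them in this was therefore not tested. The points of a pair share arrays, labelling and scaling, so these values are descriptions. In the 6 comparisons the changes of UCSF034_001767 and UCSF034_001768 differed by a median of 0.02 (log2), and those of UCSF034_000310 and UCSF034_000311 by 0.12. In the pair UCSF034_002520 and UCSF034_002521, both probes were lowest of their group on reprogrammed mammary replicate 4 (15.27 and 15.18, scaled) and highest on replicate 2 (16.38 and 16.28). Whether both probes of a pair report the same RNA was not tested, and counts of members above count probes, not miRNAs.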

How the data were processed

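Cy3-labelled RNA of 12 samples was hybridised to single-colour custom Agilent arrays, per the labels' protocols. The deposited scanner files hold linear intensity, background-subtracted by Agilent Feature Extraction (version 10.5.1.1 per the file headers of 11 files; 10.1 per the submitters' processing notes; the file of reprogrammed lung replicate 3 has no header and rounded signal). The authors' deposited value table holds log2 values; in the sources used here its normalization is not given. There were 0 columns of other samples.

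Members and probe lists were chosen with earlier results of these data known. Members and named probes followed the rule in the text: the 8 brightest, the 5 smallest and 5 largest ranges, the nearest probes at each threshold, extremes of slide p and SD, up to 5 called members and serial neighbours. Naming the other called members and the probes stable in 5 processings was decided after their values were seen, as were the held-out check and the difference of both reprogrammed changes.

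Outlier spots (164 to 345 per array) were dropped. Arrays were scaled to a common 75th percentile, taken over 630 probes that every array measured well above background; signal was then floored at 10.7 and averaged as log2 over spots. Of 2579 probes, 947 were well above background on at least 3 arrays and 946 of these had a value on every array. limma 3.58.1 (R 4.3.3) fitted 4 group means (8 residual degrees of freedom) and was tested on simulated data. Slides were read from array identifiers: slide 1 carried 2 adult lung arrays (replicates 1 and 2) and 1 of each other group, slide 2 held 1 of each, slide 3 held none of adult lung. The files hold no mean spot signal, so normexp (offset 50) and unsubtracted signal used the spot median. The number of arrays limits the precision.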

Additional observations from a re-analysis of the deposited data

Results flagged for a closer look

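For UCSF034_001384 the reprogrammed-minus-adult difference was not the same under the 2 tissue names. It was 0.26 ± 0.09 between the groups named mammary and -0.20 ± 0.09 between those named lung (log2, SE), and these differed by 0.45 ± 0.12 (SE, limma interaction, adjusted p = 0.0387), where 11.7% of all probes tested passed and 1 of the 32 members did. Neither difference passed alone (limma adjusted p = 0.096 and 0.0996). The labels do not say whether the tissue name is the origin or the new fate. Paired the other way, reprogrammed mammary minus adult lung was 0.17 and reprogrammed lung minus adult mammary -0.11 (limma adjusted p = 0.136 and 0.542). In the scaled values all 3 reprogrammed mammary arrays lay above all 3 adult mammary arrays and all 3 reprogrammed lung arrays below all 3 adult lung arrays. With no scaling the mammary order was reversed, with 9.01, 8.99 and 8.87 in reprogrammed against 9.26, 9.60 and 9.47 in adult mammary cells. The lung order was kept. The probe was chosen for group means within 0.6, so this is a description. The adjusted p ran from 0.0156 to 0.319 over 20 other settings, and passed in 7 of them. It missed the threshold with slide as a fixed block (limma adjusted p = 0.0584).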

How the results depend on the processing

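Over the settings tried, the 32 members became 16 with a range under 0.4 and 53 under 0.8. They became 50 with the rule applied to scaled scanner signal of 2578 probes (an alternative chosen after seeing the data). Of these 50, 20 are members (62.5% of the members and 40% of those found). Another 19 of the 50 are not in the authors' table and could not be members. Leaving out single arrays gave 29 to 35 members. In the scaled values the range was under 0.6 in 20 members, in 12 with the percentile over all probes, in 3 with no scaling, in all 32 in the authors' table (by choice) and in 16 to 21 when single arrays were left out. The median range was 1.39 with no scaling and 0.502 to 0.607 without single arrays, and the median within-group SD 0.223 to 0.3003. Counts of called members follow in the order reprogrammed lung against adult lung, reprogrammed mammary against adult mammary, and adult mammary against adult lung (4, 1 and 6 as reported, by limma). They were 9 and 0 for the first 2 (percentile over all probes), 1 and 0 (quantile normalization), 22, 9 and 18 with no scaling, 7, 2 and 10 after normexp, 2 for the first and 2 for the adult tissues with slide as a fixed block, and 1, 0 and 3 with no filter on dim probes; the authors' table gave 0 for the second. Reprogrammed mammary against reprogrammed lung (0 as reported) gave 12 with no scaling, 8 after normexp and 1 with no filter. Reprogrammed mammary against adult lung (6 as reported) gave 27 with no scaling and 2 after quantile normalization. Leaving out single arrays gave 1 to 10, 0 to 1, 2 to 9, 0 to 4 and 5 to 8 for these 5 comparisons and 0 to 1 for reprogrammed lung against adult mammary; the slide test kept 0 members in each of its settings. Same-numbered arrays did not deviate together (correlations from -0.450 to 0.271, and 1 of 12 arrays correlated best with its own number); with the replicate block the mammary and adult counts were 0 and 2, and the difference of differences for UCSF034_001384 missed the threshold (limma adjusted p = 0.126). With no scaling, the change of UCSF034_001113 turned to -0.18 in reprogrammed lung, -0.0149 in adult mammary and -0.65 in reprogrammed mammary cells against adult lung, and that of UCSF034_002465 to -0.15 between the mammary groups, -0.12 between the adult tissues and -0.27 in reprogrammed mammary against adult lung. In that last comparison UCSF034_001736, UCSF034_002520 and UCSF034_002521 turned to -0.82, -0.43 and -0.46, and UCSF034_001736 also to -0.18 after quantile normalization and -0.0398 in the authors' table. With no scaling each change also holds the shift of array brightness, by construction; the cause of the other differences was not tested.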
